A study of Mus musculus with 8 samples.

Results

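The genes described here serve the uptake and export of dietary fat by the gut: the apolipoproteins Apoa1, Apoa4, Apob, Apoc2 and Apoc3, the lipid transfer protein Mttp, the acyltransferases Mogat2 and Dgat1, and the fatty acid-binding proteins Fabp1 and Fabp2. They were chosen by gene symbol, and all 10 were found among the 46635 loci of the deposited gene table. RNA had been sequenced from small intestine of wild-type mice after EDTA treatment to strip the epithelium, a sample called mesenchyme, and had been extracted with TRIzol. There were 4 libraries from pups at postnatal day 14 (P14) and 4 from fetuses at E17.5, which the sample labels shorten to E17. The study asked about gut elongation, and its design set these ages side by side. Neither the sex of the animals nor whether a library came from 1 animal or several is stated, and the p-values reflect the spread among these libraries alone, which may be technical.

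Dietary triglyceride is digested in the gut lumen, and the fatty acids and monoacylglycerol that result enter enterocytes, the absorptive cells of the epithelium. There, FABP1 and FABP2 bind fatty acids in the cytosol, and MOGAT2 and DGAT1 join them back into triglyceride at the endoplasmic reticulum. MTTP loads this lipid onto APOB, APOA4 and APOA1 are added, and the finished chylomicrons leave through the lymph. Suckling pups live on milk, which is rich in fat, and the fetal gut is not yet fed through the mouth. Nearly all of these genes are known as epithelial or liver genes, so their level in a stripped gut wall has to be read beside the epithelium that the stripping left behind.

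That epithelium was measured with Epcam, which encodes a surface protein of epithelial cells (chr17:87943407-87958555, GRCm39, plus strand). Levels are in FPKM, that is, per unit of gene length and of library size, so that levels can be compared between genes. Epcam stood at 1228, 8.46, 118 and 33.5 FPKM in P14 replicates 1, 2, 3 and 4, against 0.683, 1.73, 0.844 and 1.32 FPKM in E17.5 replicates 1, 2, 3 and 4. The P14 libraries thus differed among themselves by 145-fold, in the order replicate 1, replicate 3, replicate 4 and replicate 2, and even the lowest lay 4.88-fold above the highest E17.5 library. Reads behind Epcam numbered 27 to 62 in an E17.5 library. In bulk tissue, fewer cells of a type and less RNA per cell cannot be told apart.

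The reads assigned to genes, in units of 1e+06, numbered 17.7 to 18.5 per P14 library and 16.7 to 19.5 per E17.5 library, and 23086 to 25186 genes lay above 0. P14 replicate 1 stood apart from the other 7 libraries. Its summed smooth muscle markers reached 2716 FPKM, against 7492 to 10557 FPKM in the other P14 libraries and 4712 to 5181 FPKM at E17.5. The age differences of the fat absorption genes are therefore also given without it. The test took in the 14044 genes that reached 1 FPKM in 4 or more libraries, and 9 of the 10 fat absorption genes were among them.

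The promoters of 4 of the genes are shown, Apoa1 and Apoa4 because they had the highest levels. Apob is shown because it alone fell below the level that Epcam predicts, in P14 replicates 4 and 2. Fabp1 is shown because it went its own way among the P14 libraries. Each line gives the 110 bases before the gene's start, 5′ to 3′ on the gene's strand, from RefSeq's annotation of the build GRCm38.p6. These positions cannot be set against the gene positions given elsewhere, which are on GRCm39. Capitals mark the matches to any of 5 motifs, searched on both strands. The TATA box was searched as the letters TATAAA, and an HNF4 site as the letters CAAAGTCC. An HNF1 half-site was searched as the letters GTTAAT, and a GATA site as the letters AGATAA. A CDX site was searched as TTTATGG, which reads as CCATAAA when it lies on the other strand.
Apoa1, chr9:46228520-46228629, plus strand: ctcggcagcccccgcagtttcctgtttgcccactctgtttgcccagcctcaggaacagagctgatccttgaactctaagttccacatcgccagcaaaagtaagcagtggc
Apoa4, chr9:46240734-46240843, plus strand: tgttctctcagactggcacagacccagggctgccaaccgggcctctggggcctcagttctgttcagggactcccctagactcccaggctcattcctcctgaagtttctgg
Apob, chr12:7977567-7977676, plus strand: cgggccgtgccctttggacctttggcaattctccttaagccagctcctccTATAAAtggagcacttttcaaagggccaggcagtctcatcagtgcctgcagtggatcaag
Fabp1, chr6:71199769-71199878, plus strand: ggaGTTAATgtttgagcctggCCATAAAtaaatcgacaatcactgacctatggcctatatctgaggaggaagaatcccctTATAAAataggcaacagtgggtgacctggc

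Of these 4 promoters, that of Fabp1 held 3 of the motifs within 110 bases: an HNF1 half-site, a CDX site and a TATA box whose first base lay 30 bases before the start. Apob held a TATA box 60 bases before the start. No listed motif fell in these windows of Apoa1 and Apoa4, which says only that these letters are not there. Among all 32851 promoters of the RefSeq table, 5.94% held the TATA box within 110 bases, 0.524% the HNF4 site, 2.75% the HNF1 half-site, 3.99% the GATA site and 0.989% the CDX site. A match is a description of the sequence and not a binding site.

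Apoa1, the main protein of high-density lipoprotein and a component of chylomicrons, was among the most abundant of the 10 genes in the pups and low in the fetuses. Its level was 5971, 70.7, 1024 and 413 FPKM in P14 replicates 1, 2, 3 and 4, against 2.32, 2.27, 0.907 and 1.47 FPKM in E17.5 replicates 1, 2, 3 and 4. The ages did not overlap, the lowest P14 library lying 30.5-fold above the highest E17.5 library. On the log2(FPKM + 1) scale, on which the pseudocount of 1 makes differences of low genes smaller than they are, Apoa1 was higher at P14 by 7.93 ± 1.16 (SE, adjusted p = 0.00353 by limma, Benjamini-Hochberg adjusted across the whole table). Without P14 replicate 1 the difference was 6.87 (limma adjusted p = 0.000993). Over all tested genes, 9.72% were called higher at P14 at an adjusted p under 0.05 and 15% lower. The shares without P14 replicate 1 were 22.6% and 26.9%.

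Apoa4, an apolipoprotein that enterocytes secrete on chylomicrons during fat absorption, followed the same order. It stood at 6088, 58.4, 1271 and 456 FPKM in P14 replicates 1, 2, 3 and 4, against 2.60, 3.39, 1.08 and 3.04 FPKM in E17.5 replicates 1, 2, 3 and 4. All P14 libraries lay above all E17.5 libraries. The difference was 7.64 ± 1.23 on the log2 scale (SE, limma adjusted p = 0.00485), and 6.58 without P14 replicate 1 (limma adjusted p = 0.00217). The balance between Apoa1 and Apoa4 varied little, with an Apoa1 to Apoa4 ratio of 0.806 to 1.21 in the P14 libraries and 0.484 to 0.894 in the E17.5 libraries. Together they made up 89.5%, 70.0%, 89.2% and 82.4% of the summed FPKM of the 10 genes in P14 replicates 1, 2, 3 and 4, against 9.99% to 26.6% at E17.5.

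Apoc3, which slows the clearance of triglyceride-rich lipoproteins from blood, lies between them on chromosome 9. In the table's coordinates (GRCm39), Apoa1 spans chr9:46139928-46141767 on the plus strand, Apoc3 chr9:46144348-46146934 on the minus strand and Apoa4 chr9:46152142-46154756 on the plus strand, with gaps of 2580 and 5207 bases, so that the 3 genes fit within 14829 bases. Apoc3 was measured at 411, 11.2, 97.4 and 44.5 FPKM in P14 replicates 1, 2, 3 and 4, against 1.96, 0.232, 0.141 and 1.28 FPKM in E17.5 replicates 1, 2, 3 and 4. Again the ages did not overlap. The spread was wider than for its neighbours at E17.5, where the 4 values rest on 28, 3, 2 and 19 reads. For the library with 2 reads, the exact 95% Poisson interval runs from 0.242 to 7.22 reads and covers counting error only. The difference was 5.29 ± 0.964 on the log2 scale (SE, limma adjusted p = 0.00759), and 4.43 without P14 replicate 1 (limma adjusted p = 0.00331).

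Apob, the large structural protein on which each chylomicron is built (chr12:8027629-8066839, plus strand), was lower than Apoa1, Apoa4 and Apoc3 in every P14 library. It had 277, 1.12, 27.5 and 7.17 FPKM in P14 replicates 1, 2, 3 and 4, against 0.0597, 0.190, 0.0642 and 0.126 FPKM in E17.5 replicates 1, 2, 3 and 4. The ages did not overlap, and no E17.5 library reached 1 FPKM, so Apob entered the test only through the pups. P14 replicate 1 lay 248-fold above P14 replicate 2, the widest such spread of the 9 tested genes. The log2 difference of 4.12 ± 1.29 (SE) missed the threshold in the full comparison (limma adjusted p = 0.0512). Without P14 replicate 1 it was 2.83 and passed (limma adjusted p = 0.0257), and without P14 replicate 2 it was 5.18 and passed as well (limma adjusted p = 0.0173).

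Apoc2, the activator of lipoprotein lipase (chr7:19405504-19411866, minus strand), was at the limit of detection in both ages and was not tested. It had 1, 0, 1 and 2 reads in P14 replicates 1, 2, 3 and 4, against 0, 0, 1 and 0 reads in E17.5 replicates 1, 2, 3 and 4. A count of 0 still allows 3 reads, which for this gene is 0.185 to 0.263 FPKM depending on the library. The whole of Apoc2 lies within another gene model on the same strand, Gm44805, which is listed at 0 in all 8 libraries. The sources used here do not say how reads in an overlap were counted. Apoc2 therefore gives no comparison between the ages.

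**Figure D1:**
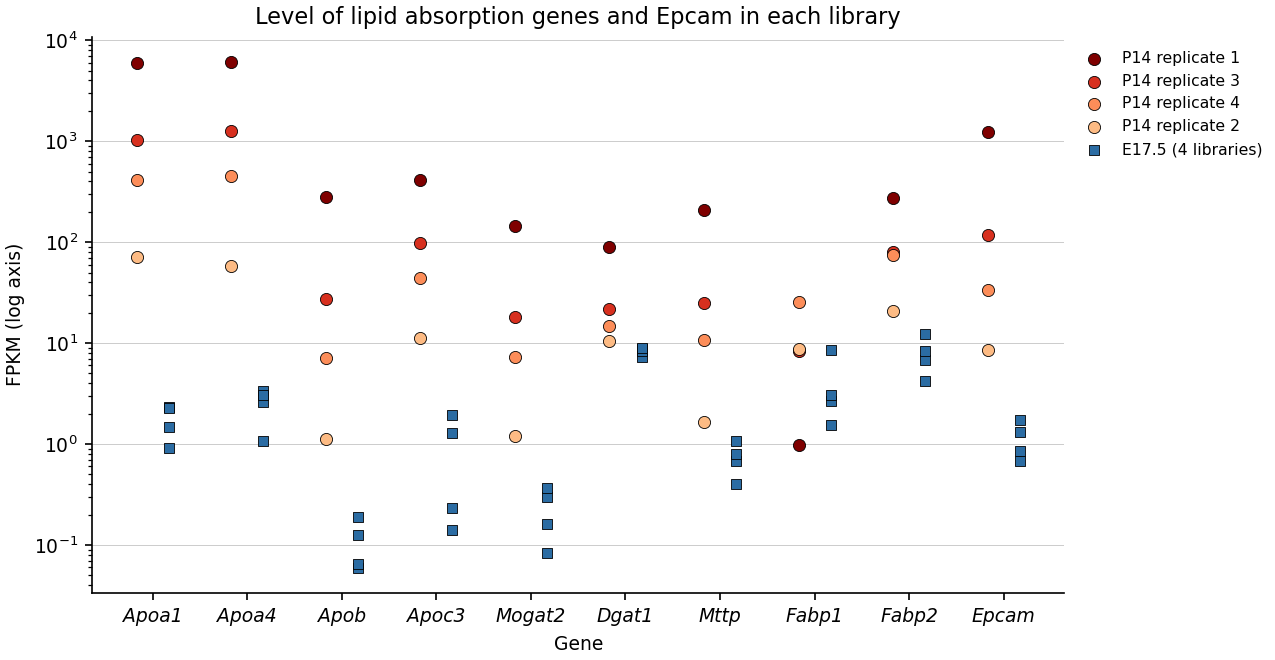
Level in FPKM (log axis) of the 9 tested genes and Epcam, with 1 point per library, P14 circles left of E17.5 squares. P14 replicate 1 is highest for every gene shown except Fabp1, the one gene drawn whose ages overlap.

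Mttp, the protein that transfers lipid to APOB as the particle forms (chr3:137795616-137849179, minus strand), followed Apob in the pups at a similar level. It stood at 211, 1.66, 25.1 and 10.8 FPKM in P14 replicates 1, 2, 3 and 4, against 0.405, 0.678, 0.798 and 1.08 FPKM in E17.5 replicates 1, 2, 3 and 4. The ages did not overlap, and P14 replicate 2 lay nearest to the fetal libraries. The log2 difference was 3.57 ± 1.14 (SE) and missed the threshold (limma adjusted p = 0.0547). It passed at 2.44 without P14 replicate 1 (limma adjusted p = 0.0303) and at 4.55 without P14 replicate 2 (limma adjusted p = 0.0152). Within each library, the ratio of Apob to Mttp was 1.32, 0.673, 1.10 and 0.662 in P14 replicates 1, 2, 3 and 4, and lower, 0.0805 to 0.280, at E17.5. The fetal libraries held more Mttp relative to Apob, with no overlap.

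Both enzymes that rebuild triglyceride were higher in every pup library than in any fetal library. Mogat2, which adds a fatty acid to monoacylglycerol and is typical of the small intestine (chr7:98868291-98887818, minus strand), had 145, 1.2, 18.2 and 7.29 FPKM in P14 replicates 1, 2, 3 and 4, against 0.163, 0.300, 0.0824 and 0.366 FPKM in E17.5 replicates 1, 2, 3 and 4. The ages did not overlap, and like Apob it passed the filter only through the pups. It was called higher at P14 by 3.62 ± 1.10 on the log2 scale (SE, limma adjusted p = 0.0462) and by 2.53 without P14 replicate 1 (limma adjusted p = 0.0212). The call was lost, with adjusted p-values of 0.0686 to 0.111 by limma, when P14 replicate 3, P14 replicate 4 or any single E17.5 library was left out.

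Dgat1, which completes triglyceride in many tissues (chr15:76386212-76396225, minus strand), was the most even of the 9 tested genes across the fetal libraries. It had 90.0, 10.6, 21.5 and 14.8 FPKM in P14 replicates 1, 2, 3 and 4, against 8.65, 7.32, 8.35 and 8.87 FPKM in E17.5 replicates 1, 2, 3 and 4. P14 replicate 1 was far above the rest, and the ages did not overlap. With all libraries the log2 difference of 1.42 ± 0.573 (SE) was not called (limma adjusted p = 0.107), and without P14 replicate 1 it was 0.79 and called (limma adjusted p = 0.0126). The Mogat2 to Dgat1 ratio within a library was 1.62, 0.113, 0.845 and 0.492 in P14 replicates 1, 2, 3 and 4, against 0.00987 to 0.0413 at E17.5.

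The fatty acid-binding proteins differed from each other. Fabp2, the intestinal form (chr3:122688721-122693155, plus strand), had 273, 20.7, 80.0 and 75.3 FPKM in P14 replicates 1, 2, 3 and 4, against 12.4, 4.24, 6.83 and 8.27 FPKM in E17.5 replicates 1, 2, 3 and 4. The ages did not overlap, and Fabp2 and Dgat1 were the highest of the 10 genes in the fetuses by mean level (7.94 ± 3.42 and 8.30 ± 0.685 FPKM, SD, n = 4). Fabp2 was higher at P14 by 3.20 ± 0.693 on the log2 scale (SE, limma adjusted p = 0.0145) and by 2.60 without P14 replicate 1 (limma adjusted p = 0.00827). It overlaps an antisense long non-coding gene, 4933405D12Rik, which had at most 3 reads in any library. The sources used here do not say whether reads were counted by strand.

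Fabp1, the form shared by liver and proximal intestine (chr6:71176863-71182018, plus strand), broke the order of the P14 libraries. It had 0.975, 8.78, 8.34 and 25.4 FPKM in P14 replicates 1, 2, 3 and 4, against 8.55, 2.70, 1.55 and 3.04 FPKM in E17.5 replicates 1, 2, 3 and 4. P14 replicate 1, the library with the most Epcam, was the lowest of all 8 libraries, with 7 reads, and the ages overlapped. The log2 difference was 0.93 ± 0.757 (SE, limma adjusted p = 0.396), and without P14 replicate 1 it was 1.62 (limma adjusted p = 0.0497). The Fabp2 to Fabp1 ratio was 280 in P14 replicate 1, against 2.36 to 9.60 in the other P14 libraries and 1.45 to 4.42 at E17.5.

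Because FABP1 marks the proximal and FABP6 the distal small intestine, a few regional genes were read beside it, chosen after the values had been seen. Fabp6, the ileal bile acid-binding protein, had 68.9, 1.61, 0.314 and 0.410 FPKM in P14 replicates 1, 2, 3 and 4, against 0 to 0.197 FPKM at E17.5. Lct, the lactase of the brush border, had 75.0, 0.764, 32.5 and 10.4 FPKM in P14 replicates 1, 2, 3 and 4, and Gata4, a factor of the proximal epithelium, had 0.83, 0.134, 1.80 and 0.876 FPKM. In FPKM, P14 replicate 1 had the most Fabp6 and Lct of the pup libraries, and less Gata4 than P14 replicates 3 and 4. It also had the most Epcam. Levels in P14 replicates 3, 4 and 2, as percentages of P14 replicate 1, were 9.62%, 2.73% and 0.689% for Epcam. They were 43.3%, 13.8% and 1.02% for Lct, and 0.455%, 0.595% and 2.34% for Fabp6. The ileal genes Slc51a (10.1%, 5.1% and 0.911%) and Slc51b (22.7%, 10.4% and 3.11%) differed from Fabp6. Slc10a2, also ileal, was at 0 outside P14 replicate 1. The part of gut region in the Fabp1 values was not tested.

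Across the list, the count of genes called higher at P14 was 5 of the 9 tested (Apoa1, Apoa4, Apoc3, Mogat2 and Fabp2), against 9.72% of all tested genes, and none was called lower, against 15%. Their median log2 difference was 3.62, against 0.00219 for all tested genes. Without P14 replicate 1 all 9 were called higher, against 22.6% of all tested genes, and the medians were 2.60 and -0.0251. In 8 of the 9, every P14 library lay above every E17.5 library, as it did for 15.6% of all tested genes. These counts and medians are a description: Apob and Mogat2 entered the test only through the pups, where they are high, and only Apoa4, Fabp1, Fabp2 and Dgat1 reached 1 FPKM in all 4 E17.5 libraries. The 10 genes together took 1.72%, 0.0260%, 0.411% and 0.155% of the reads in P14 replicates 1, 2, 3 and 4, against 0.00394% to 0.00524% at E17.5. The epithelial markers moved with these differences: Epcam itself was higher at P14 by 5.30 ± 1.30 on the log2 scale (SE, limma adjusted p = 0.0223). Without P14 replicate 1 that difference was 4.01 (limma adjusted p = 0.00674), and it lost the call when P14 replicate 3 or any single E17.5 library was left out (adjusted p of 0.0539 to 0.0651 by limma).

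The levels of 8 of the 9 tested genes fell in the order of Epcam within the pups, replicate 1, replicate 3, replicate 4 and replicate 2, and Fabp1 was the exception. This order held for 13.8% of all tested genes. They differed in how steeply they followed it. Set against P14 replicate 1, Epcam kept 9.62%, 2.73% and 0.689% of its level in P14 replicates 3, 4 and 2. Apob kept 9.91%, 2.59% and 0.403%, Mttp 11.9%, 5.14% and 0.788%, and Mogat2 12.5%, 5.02% and 0.826%. Apob was the one gene that kept less than Epcam, in P14 replicates 4 and 2. Apoa1 kept 17.2%, 6.92% and 1.18%, Apoa4 20.9%, 7.49% and 0.959%, and Apoc3 23.7%, 10.8% and 2.72%, each more than Epcam kept in the same library. Fabp2 kept 29.3%, 27.6% and 7.60%, and Dgat1 23.9%, 16.5% and 11.8%. Fabp1 reached 855%, 2607% and 901% of its level in P14 replicate 1.

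**Figure D2:**
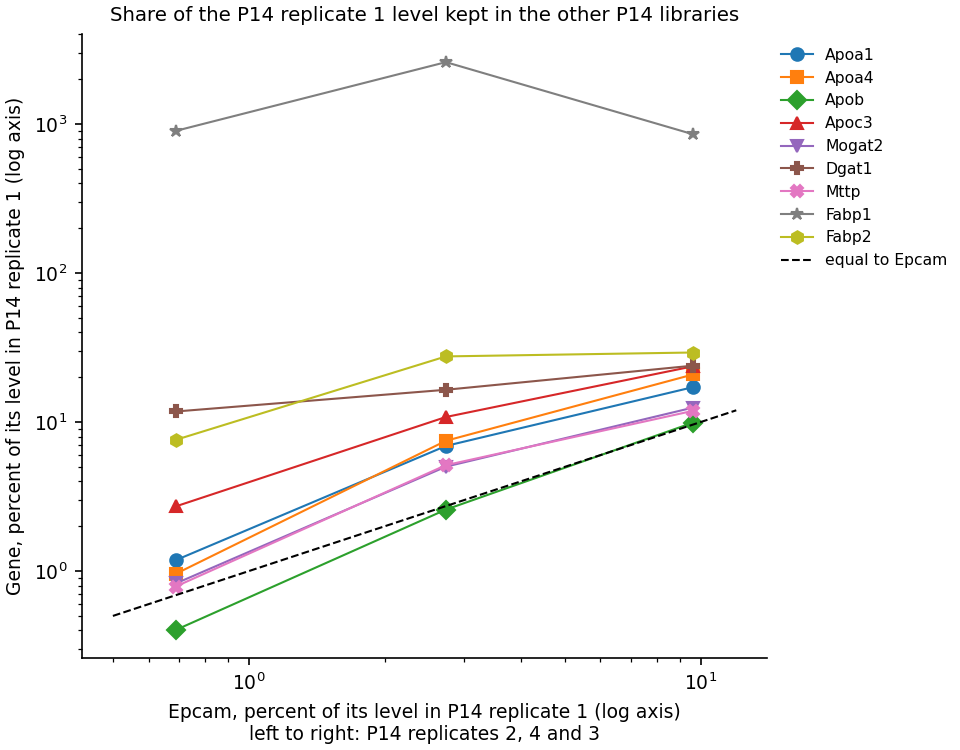
Level of each of the 9 genes in P14 replicates 2, 4 and 3 as a percentage of its level in P14 replicate 1 (log axis), against the same percentage for Epcam (log axis), with the dashed line where both are equal. Apob lies close to the line in P14 replicates 3 and 4 and below it in P14 replicate 2, Mttp and Mogat2 just above it, and Fabp1 above 100% throughout.

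The level that Epcam predicts is that of P14 replicate 1 scaled by the share of Epcam left in a library. Observed levels divided by this prediction were 1.78, 2.53 and 1.72 for Apoa1 in P14 replicates 3, 4 and 2, and 2.17, 2.74 and 1.39 for Apoa4. Apoc3 gave 2.46, 3.96 and 3.95. Mttp (1.24, 1.88 and 1.14) and Mogat2 (1.30, 1.84 and 1.2) lay slightly above 1, and Apob gave 1.03, 0.947 and 0.584. Fabp2 gave 3.05, 10.1 and 11.0, Dgat1 2.49, 6.03 and 17.1, and Fabp1 88.9, 954.5 and 1308. The Fabp1 prediction rests on 7 reads in P14 replicate 1. In 8 of the 9 genes the ratio was above 1 in all 3 libraries, Apob being the exception. That was also so for 98.6% of all tested genes, so the count by itself does not set these genes apart.

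Epithelial genes are the closer comparison. The 13 tested pan-epithelial markers other than Epcam had median ratios of 1.85, 2.24 and 3.71 in P14 replicates 3, 4 and 2, and 9 of them lay above 1 in all 3 libraries. The 12 tested enterocyte markers had medians of 0.902, 0.908 and 0.763, and 4 of them lay above 1 in all 3. In P14 replicate 2, Apoa1, Apoa4, Mttp and Mogat2 lay between the medians of these lists. In P14 replicate 4, Apoa1 and Apoa4 lay above both medians, and in P14 replicate 3 Apoa4 did. Apoc3, Fabp2, Dgat1 and Fabp1 lay above both medians in all 3 libraries. With P14 replicate 3 as the basis instead, the ratios in P14 replicates 4 and 2 were 1.42 and 0.964 for Apoa1, 1.26 and 0.642 for Apoa4, 1.61 and 1.60 for Apoc3, 3.32 and 3.62 for Fabp2, 2.43 and 6.88 for Dgat1, and 10.7 and 14.7 for Fabp1. What exceeds the Epcam prediction for Dgat1 was 12.9, 12.4 and 9.98 FPKM in P14 replicates 3, 4 and 2, beside a level of 7.32 to 8.87 FPKM at E17.5.

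**Figure D3:**
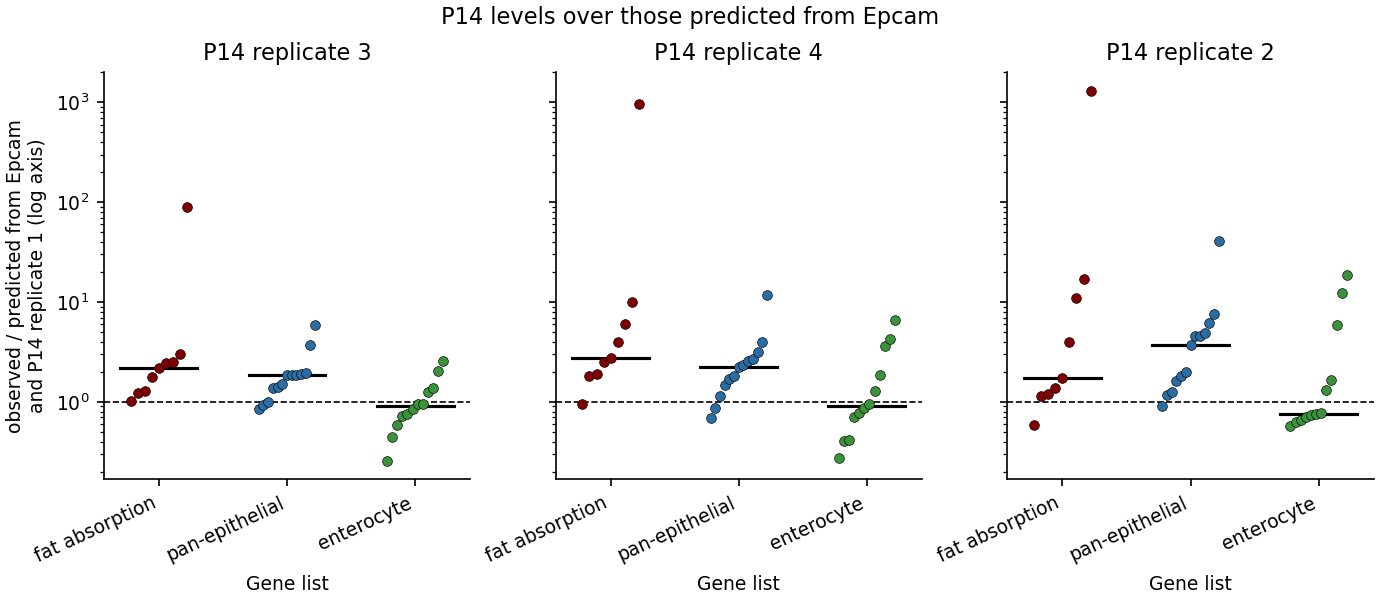
Observed level divided by the level predicted from Epcam and P14 replicate 1 (log axis) in P14 replicates 3, 4 and 2, with 1 point per gene for the 9 fat absorption genes, 13 pan-epithelial and 12 enterocyte markers. Lines are medians (for the fat absorption genes 2.17, 2.74 and 1.72), and the dashed line at 1 marks the share of Epcam left.

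Between the ages, the level of each gene per Epcam was compared directly. For Apoa1, FPKM per FPKM of Epcam was 4.86, 8.36, 8.67 and 12.3 in P14 replicates 1, 2, 3 and 4, against 3.40, 1.31, 1.08 and 1.12 in E17.5 replicates 1, 2, 3 and 4. For Apoa4 it was 4.96, 6.90, 10.8 and 13.6 at P14, against 3.80, 1.96, 1.28 and 2.31 at E17.5. Neither gene overlapped between the ages, and E17.5 replicate 1 came closest to the pups in both. The ratio of geometric means was 5.33 for Apoa1 and 3.89 for Apoa4 (exact two-sided permutation p = 0.0286 each, the smallest that 4 against 4 libraries can give). Apob, at 0.226, 0.132, 0.233 and 0.214 per Epcam in P14 replicates 1 to 4, against 0.0875, 0.110, 0.0761 and 0.0957 in E17.5 replicates 1 to 4, was 2.15-fold higher with no overlap (exact permutation p = 0.0286). Apob passed the filter on low values only through the pups, where it is high, and its call does not outlast a pseudocount of 0.1. That pseudocount is about as large as the E17.5 level of Apob (mean 0.110 FPKM) and by itself makes the difference smaller. The E17.5 means of Apoa1 and Apoa4 were 1.74 and 2.53 FPKM, so they are touched less.

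The fit across all genes, made with a pseudocount of 0.1, put the log2 difference per Epcam at 2.45 ± 1.65 for Apoa1 (SE, limma adjusted p = 0.138), 2.02 for Apoa4 (limma adjusted p = 0.223) and 0.21 for Apob (limma adjusted p = 0.903), and called none of them. In that fit every gene shares the spread of Epcam. It called 0% of all tested genes higher per Epcam at P14, with 0 genes also at an unadjusted p under 0.05, and 98.5% lower. Leaving out P14 replicate 1, it called Apoa1 (2.70, limma adjusted p = 0.0131) and Apoa4 (2.27, limma adjusted p = 0.0369) higher. They were among 11 such genes, 0.0783% of those tested, while 98.6% were lower. The permutation test without that library cannot go below 0.0571, and Apoa1, Apoa4 and Apob each gave that value, with log2 differences of 2.66, 2.21 and 1.03.

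None of the other genes was higher per Epcam at P14 without overlap. Apoc3 per Epcam was 0.335, 1.32, 0.824 and 1.33 in P14 replicates 1 to 4, against 2.87, 0.134, 0.167 and 0.972 in E17.5 replicates 1 to 4; the ages overlapped and the log2 difference was 0.74 (exact permutation p = 0.6). Mogat2 also overlapped, with a log2 difference of -0.25 (exact permutation p = 0.514). Mttp was lower per Epcam at P14, 0.172 to 0.323 against 0.391 to 0.945 at E17.5, with no overlap (log2 difference -1.57, exact permutation p = 0.0286, limma adjusted p = 0.338, and 0.174 without P14 replicate 1). Against the mean of the tested pan-epithelial markers, Epcam included, the difference of Mttp was 0.56 (exact permutation p = 0.171). Fabp2 overlapped, at a log2 difference of -2.85 (exact permutation p = 0.0571, limma adjusted p = 0.0965).

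Dgat1 and Fabp1 were the only fat absorption genes that the fit with all 8 libraries called lower per Epcam. Dgat1 was 0.0733 to 1.25 per Epcam at P14, against 4.23 to 12.7 at E17.5, a log2 difference of -4.60 in the fit (limma adjusted p = 0.00526), and -3.93 without P14 replicate 1 (limma adjusted p = 0.000316). Fabp1 was 0.000794, 1.04, 0.0705 and 0.758 in P14 replicates 1 to 4, against 12.5, 1.56, 1.83 and 2.31 in E17.5 replicates 1 to 4, a log2 difference of -5.09 (limma adjusted p = 0.00256). Leaving out P14 replicate 1, in which Fabp1 had 7 reads, the difference was -2.89 (limma adjusted p = 0.00784). Against the pan-epithelial markers it was -2.90 with overlapping ages (exact permutation p = 0.286, limma adjusted p = 0.0254). Per Epcam, neither overlapped between the ages (exact permutation p = 0.0286 each). The same held for most genes, as 97.1% of all tested genes were lower per Epcam with no overlap. The median log2 difference per Epcam was -0.73 over the 9 genes and -6.10 over all tested genes.

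**Figure D4:**
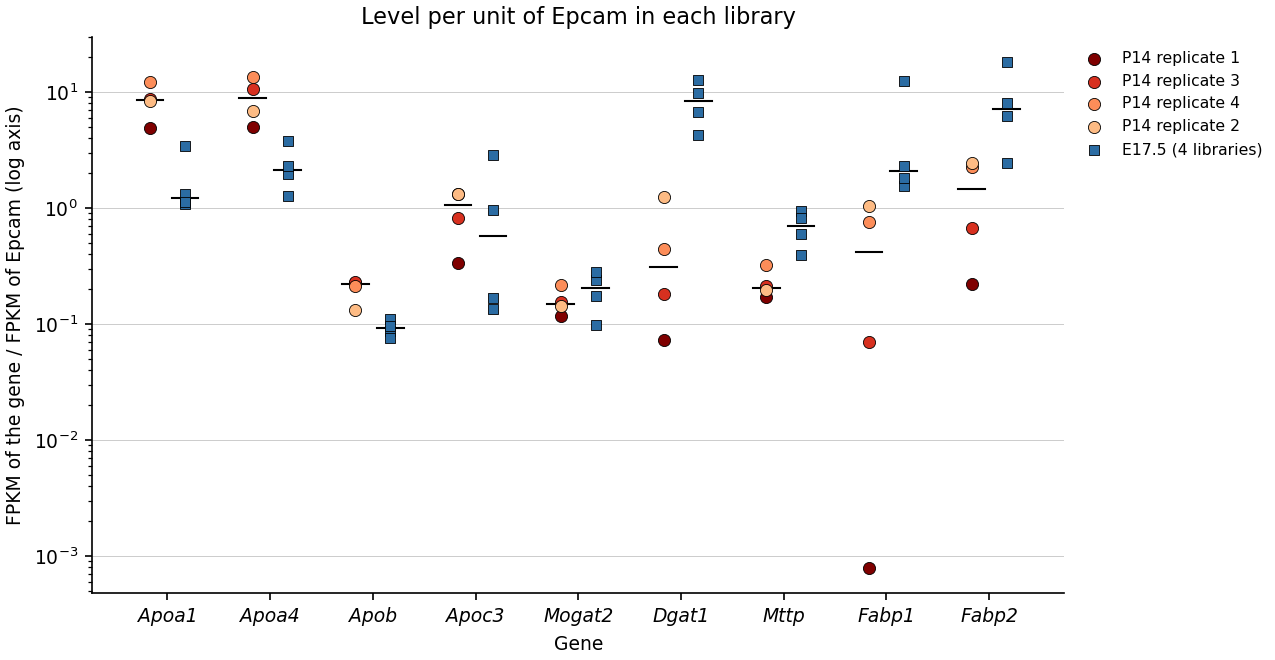
FPKM of each gene per FPKM of Epcam (log axis), with 1 point per library, P14 circles left of E17.5 squares, and lines at the medians. Apoa1, Apoa4 and Apob lie higher at P14 with no overlap, Apoc3, Mogat2 and Fabp2 overlap, and Mttp, Dgat1 and Fabp1 lie lower at P14 with no overlap.

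**Figure D5:**
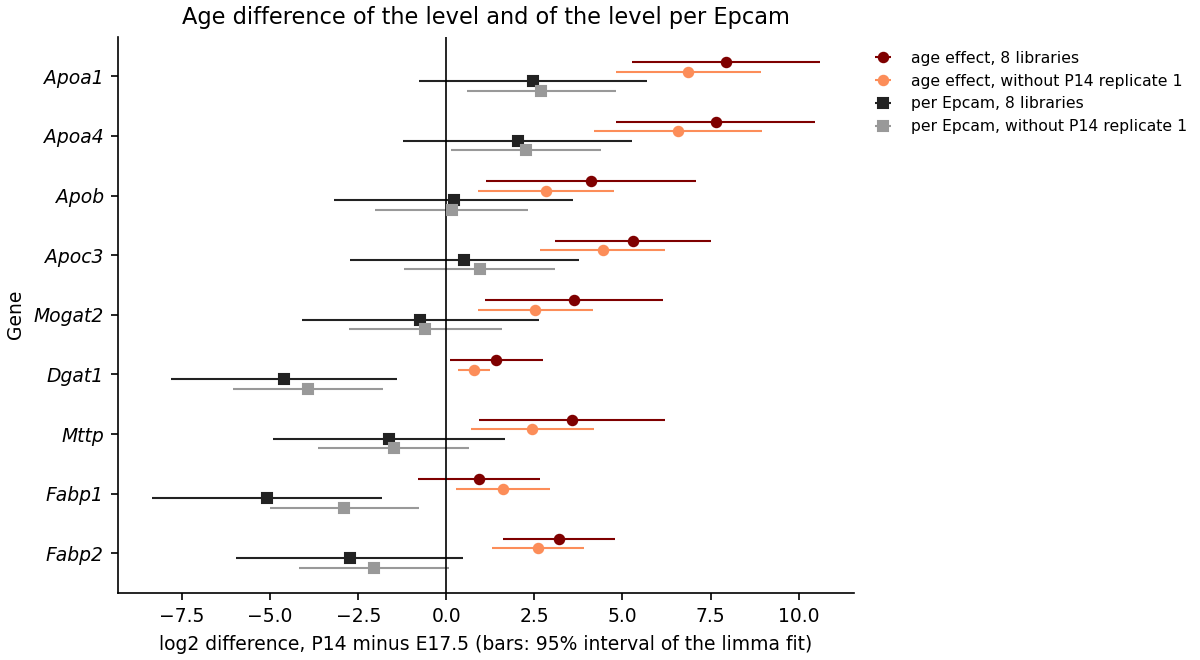
Log2 difference, P14 minus E17.5, of the level (circles) and of the level per Epcam (squares) for the 9 tested genes, with all 8 libraries and without P14 replicate 1. Bars are 95% intervals of the limma fit. All circles lie above 0, with Apoa1 highest at 7.93, and the squares run between 2.70 for Apoa1 and -5.09 for Fabp1.

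A higher level per Epcam with no overlap between the ages was found in 25 of 14043 genes or 0.178%, most genes (97.1%) being lower. Besides Apoa1, Apoa4 and Apob, the 25 comprised 5 enterocyte markers (Clca4b, Alpi, Cdhr2, Mep1a and Cdhr5), 8 immunoglobulin segments and 9 others, among them Slc51a, Guca2a and Folr1. By the ratio of medians, Clca4b was 38.5-fold higher per Epcam, Alpi 19.3-fold, Cdhr2 16.9-fold, Mep1a 8.49-fold and Cdhr5 6.3-fold. On that measure Apoa1 was 7.0-fold higher, Apoa4 4.13-fold and Apob 2.4-fold. At E17.5 these 5 enterocyte markers had at most 0.256 FPKM in any library. The ratios above carry no pseudocount, and with the pseudocount of 0.1 Apob overlapped between the ages (log2 difference 0.21, exact permutation p = 0.343), while Apoa1 and Apoa4 still did not (exact permutation p = 0.0286 each).

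Other measures of the epithelium were then put in place of Epcam, all with the pseudocount of 0.1. Epcam itself was among the 14 tested pan-epithelial markers behind this mean and behind the pan-epithelial median below. The medians of the pan-epithelial markers given earlier leave Epcam out. Against the mean of the pan-epithelial markers, the log2 differences were 4.63 for Apoa1 (limma adjusted p = 0.00236), 4.20 for Apoa4 (limma adjusted p = 0.0031), 2.69 for Apoc3 (limma adjusted p = 0.0361), 2.39 for Apob (limma adjusted p = 0.0769) and 1.45 for Mogat2 (limma adjusted p = 0.281). The ages did not overlap for these 5 genes (exact permutation p = 0.0286 each, unadjusted), as for 0.513% of all tested genes in that direction. Of them, Apob and Mogat2 passed the filter on low values only through the pups, where they are high. Dgat1 was lower with no overlap, as were 90.6% of all tested genes. Against the mean of the enterocyte markers, Apoa1 was higher by 2.74 (limma adjusted p = 0.063) and Apoa4 by 2.31 (limma adjusted p = 0.118), neither called by limma but both without overlap (exact permutation p = 0.0286 each), as for 0.121% of all tested genes. Apob, at 0.50 (exact permutation p = 0.257), and Apoc3, at 0.80 (exact permutation p = 0.343), overlapped. Mttp, Dgat1, Fabp1 and Fabp2 were lower against the enterocyte markers with no overlap, as were 97.9% of all tested genes. Between the ages, Apoa1 and Apoa4 were therefore the genes of the list that lay higher without overlap against each of the 3 measures at the same pseudocount. That pseudocount is about as large as the E17.5 level of Apob (mean 0.110 FPKM). It is larger than that of the enterocyte marker Clca4b (0 to 0.0696 FPKM), so it also raises the E17.5 mean of the enterocyte markers. The markers behind the means did not all follow Epcam. In P14 replicate 2, the ratio to the Epcam prediction ran from 0.905 to 41.0 over the other pan-epithelial markers. Over the enterocyte markers it ran from 0.575 to 18.8. Expression of these markers outside the epithelium was not tested. Within the pups the order was different. Relative to the median of the 14 pan-epithelial markers, P14 replicate 2 held 0.600 of the predicted Apoa1 and 0.486 of the predicted Apoa4. Apoc3, Fabp2, Dgat1 and Fabp1 lay above 1 in P14 replicates 3, 4 and 2 by Epcam, by the pan-epithelial and by the enterocyte median. By Epcam, 98.6% of all tested genes did so too, and the Fabp1 ratios rest on 7 reads in P14 replicate 1.

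Other genes of the pathway were read as lists, beside 9.72% of all tested genes called higher at P14 and 15% lower. Of 13 other apolipoproteins, 4 were tested, of which Clu, a secreted chaperone, was called higher (1.72 on the log2 scale, limma adjusted p = 0.0277) and Apold1, an endothelial gene, lower (-0.95, limma adjusted p = 0.0341). Apoe, which directs lipoprotein uptake and is made by macrophages among other cells, was the most abundant, with 151.6 ± 33.6 FPKM at P14 and 215.8 ± 51.4 FPKM at E17.5 (SD, n = 4 each, limma adjusted p = 0.127). The summed macrophage markers were 164 to 239 FPKM at P14 and 399 to 449 FPKM at E17.5, 8 of the 10 were called lower, and their part in the Apoe values was not tested. The median of the 4 tested apolipoproteins was -0.08, against 0.00219 for all tested genes.

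Among 16 genes of lipid uptake and activation, 11 were tested, with 2 called higher, 1 lower and a median of 0.61. Rbp2, the retinol-binding protein of enterocytes, had 514, 15.4, 118 and 56.6 FPKM in P14 replicates 1, 2, 3 and 4, against 2.35 to 7.60 FPKM at E17.5 (log2 difference 4.14, limma adjusted p = 0.0167). Slc27a1, a fatty acid transport protein, was higher by 0.61 (limma adjusted p = 0.00418). Abca1, which loads lipid onto APOA1, was lower at P14, with 5.29 ± 0.832 FPKM against 14.9 ± 2.51 FPKM at E17.5 (SD, n = 4 each; log2 difference -1.34, limma adjusted p = 0.00127). Dbi, the acyl-CoA-binding protein, was the most abundant, with 168 ± 147 FPKM at P14 and 50.1 ± 3.71 FPKM at E17.5 (SD, n = 4 each, limma adjusted p = 0.0527), and it was called without P14 replicate 1 (log2 difference 0.90, limma adjusted p = 8.04e-05).

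Of 17 genes of triglyceride synthesis and lipid droplets, 14 were tested, with 2 called higher, 0 lower and a median of 0.59. These were Gpat3, which starts glycerolipid synthesis (1.84, limma adjusted p = 0.0316), and Pnpla2, a triglyceride lipase (0.84, limma adjusted p = 0.0379). Dgat2, the second diacylglycerol acyltransferase, had 492, 9.21, 57.6 and 22.1 FPKM in P14 replicates 1, 2, 3 and 4, against 5.02 to 6.95 FPKM at E17.5 (log2 difference 2.93, limma adjusted p = 0.0754), and it was called without P14 replicate 1 (1.84, limma adjusted p = 0.0304). Of 10 genes of chylomicron assembly and export, 8 were tested and none was called, with a median of 0.17. P4hb, the MTTP partner subunit, had 333 ± 295 FPKM at P14 and 229 ± 21.3 FPKM at E17.5 (SD, n = 4 each; log2 difference 0.21, limma adjusted p = 0.770), and its difference was -0.31 without P14 replicate 1.

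Of 14 regulators of the pathway, 7 were tested and 2 were called higher, with a median of 2.80. Creb3l3, a membrane-bound factor of enterocytes and hepatocytes that acts on apolipoprotein genes, had 181, 2.04, 26.0 and 7.5 FPKM in P14 replicates 1, 2, 3 and 4, against 0.0503 to 0.439 FPKM at E17.5 (log2 difference 3.98, limma adjusted p = 0.0335). Cdx2, the factor that sets intestinal identity, differed by 3.80 (limma adjusted p = 0.0316). Without P14 replicate 1, the numbers called higher and lower were 1 and 1 of the 4 tested other apolipoproteins and 5 and 4 of 11 for uptake. They were 6 and 3 of 14 for triglyceride synthesis, 2 and 0 of 8 for assembly, and 5 and 0 of the 7 regulators. Over all tested genes, 22.6% were then called higher and 26.9% lower. The calls of Clu, Gpat3, Creb3l3 and Cdx2 were lost without P14 replicate 3 or without any single E17.5 library, and that of Clu also without P14 replicate 4. Apold1 lost its call without P14 replicate 2 or 3 or any E17.5 library, Pnpla2 without P14 replicate 3 or 4 or E17.5 replicate 2, 3 or 4, and Rbp2 without E17.5 replicate 3 or 4. The adjusted p-values were then at most 0.109 by limma.

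Markers of other cells that could carry these genes were read alongside. Of 14 pan-epithelial markers tested, 10 were called higher at P14 and 0 lower, and of 12 enterocyte markers 8 and 0. The shares over all tested genes were 9.72% and 15%. Hepatocyte markers, since the liver also makes these apolipoproteins, summed to 746, 22.5, 86.8 and 44.8 FPKM in P14 replicates 1, 2, 3 and 4, against 31.6 to 38.1 FPKM at E17.5. Of the 14, 4 were tested, and Cps1 and Ttr were called higher and Trf lower. The sum in P14 replicate 1 came mostly from Cps1 (294.5 FPKM), Afp (261 FPKM) and Ttr (126 FPKM), with Trf at 28.3 FPKM, Serpina1b at 16.6 FPKM, Fga at 9.88 FPKM and Fgb at 7.82 FPKM. The other 7, among them Alb (0.104 FPKM), lay below 1 FPKM there, and Ahsg was at 0. At E17.5, Fga, Fgb, Ahsg and Cyp3a11 were at 0 in all 4 libraries, Alb was 0 to 0.0506 FPKM and Serpina1b at most 0.352 FPKM. Adipocyte markers summed to 217 to 256 FPKM at P14 and 258 to 308 FPKM at E17.5, with 3 of the 5 tested called higher and 0 lower. Most of these sums was Fabp4, at 123 to 227 FPKM at P14 and 249 to 299 FPKM at E17.5. Adipoq, Cfd and Retn were at 0 in every E17.5 library, and Plin1 had at most 0.0558 FPKM there. At P14, Adipoq had 0.401 to 2.73 FPKM and Plin1 0.531 to 3.54 FPKM. Adrb3 overlapped between the ages, and Lep had at most 0.131 FPKM. The part of these other cells in the results was not tested. Fibroblast markers summed to 1058 FPKM in P14 replicate 1, 2854 to 2922 FPKM in the other P14 libraries and 2726 to 3064 FPKM at E17.5.

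The protein-coding genes whose log2(FPKM + 1) was most like that of Apoa1 over the 8 libraries were Lonrf3, Cry2, Folr1, Lypd8 and Maob, with Pearson correlations of 0.991, 0.991, 0.990, 0.990 and 0.988. The libraries share their ages and their epithelial content, so these values only describe likeness. Folr1, a folate receptor, had 959, 12.1, 103 and 36.9 FPKM in P14 replicates 1, 2, 3 and 4, against 0.192 to 0.260 FPKM at E17.5. Lonrf3 and Cry2 had far narrower ranges, 2.29 to 4.69 and 11.5 to 16.3 FPKM at P14, against 0.592 to 0.798 and 7.21 to 8.35 FPKM at E17.5.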

How the data were processed

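Total RNA of the 8 samples was made into libraries with an NEBNext Ultra kit, per the labels' protocols. Per the submitters' processing notes, the tools were HISAT2, featureCounts, fastp, CASAVA and DESeq2 1.20.0 and the build GRCm39, with no roles stated. The authors deposited 1 FPKM value per gene and library. Multiplying FPKM by gene length gave whole reads for 100% of values (tolerance 1e-06), and the library size behind the deposited FPKM, relative to assigned reads, was 0.78 for P14 replicate 1 and 1.02 to 1.06 for the other libraries. The 302 loci with no gene name held 0.183% to 0.246% of reads.

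Genes at 1 FPKM or more in 4 of 8 libraries were tested with limma 3.58.1 (trend, robust, R 4.3.3) on log2(FPKM + 1), and per Epcam with a pseudocount of 0.1. P-values were adjusted by Benjamini-Hochberg across every tested gene and called under 0.05. Exact permutation tests covered the 70 assignments of libraries, and were added after the values had been seen, without a pseudocount for Epcam unless stated and with 0.1 for the marker means. Alternatives were another pseudocount, no filter, TPM, quantile normalization, limma-voom on recovered reads, a replicate block, other epithelial measures and leaving out each library. The limma fit was tried on data simulated with the E17.5 spread in both groups. That trial could not test the ratios to Epcam, and the permutation tests and predictions were not part of it. Named genes were all members, and for each list the most abundant tested gene and up to 2 called genes with the largest change each way; Slc51a, Guca2a, Folr1 in the Epcam comparison, the regional genes, and the markers given singly were picked with their values in view. The members and lists were chosen with earlier results of these data known. All 198 list symbols matched the table. Same-numbered libraries of both ages did not deviate together (correlations -0.0641 to 0.00947). Promoters of 7 genes were in the RefSeq table.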

Additional observations from a re-analysis of the deposited data

Results flagged for a closer look

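Within groups of 4 libraries, 1 library lay far from the other 3 in 8 of the 38 groups examined, judged by a gap over range above Dixon's 95% critical value. Chance alone would flag about 1 in 20 groups if values were normal and groups independent. Here the values were not on a log scale, and most flags fell on the same library. The number of flags therefore cannot be set against that rate. In P14 replicate 1 this held for Apoa1 (5971 FPKM), Apob (277 FPKM), Mttp (211 FPKM), Mogat2 (145 FPKM), Dgat1 (90.0 FPKM) and Epcam (1228 FPKM). In E17.5 replicate 1 it held for the level per Epcam of Apoa1 (3.40) and of Fabp1 (12.5). Epcam in that library had 27 reads. Apoa4, Apoc3 and Fabp2 were highest in P14 replicate 1 too, with gaps that did not reach the critical value.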

How the results depend on the processing

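Of 126 repeats of the tested genes' age effects, 104 kept their direction and side of the threshold, 10 lost the call, 12 gained it and 0 reversed. Apoa1, Apoa4 and Fabp2 were called in all 14 alternatives (adjusted p by limma at most 0.0207, 0.0264 and 0.047). Apoc3 lost the call only in limma-voom on recovered reads (adjusted p = 0.0544), which called 3 of the 9 genes higher in place of 5; leaving out 1 library gave 4 to 9. Over all genes 3473 were called, 1744 with the replicate block, which removed the call of Mogat2 (adjusted p = 0.0759) and Epcam (0.0566) but of no other fat-absorption gene, and 1735 to 6958 with 1 library left out. P4hb ranged from -0.31 to 0.478. In TPM the median over all genes shifted by -0.19. The cause of these changes was not tested.

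Per Epcam, 116 of 135 repeats kept direction and side, 1 lost the call, 13 gained it and 5 reversed. These repeats included the exact permutation tests, with and without a pseudocount, whose p-values are not adjusted. There Apoa1, Apoa4 and Mttp counted as gained in both settings, and Apob without a pseudocount (exact permutation p = 0.0286 each). Apob was -1.19 and Apoc3 -0.0103 with a pseudocount of 1. The mean of the pan-epithelial markers, Epcam included, turned Mttp to 0.563 and Mogat2 to 1.45. It called 3 genes higher and 1 lower, against 0 and 2. Leaving out 1 library gave 0 to 2 higher and 2 to 3 lower, and moved Apoc3 between -0.0596 and 1.23. Without the filter 31018 genes were called, against 13831, since more genes were tested. The count above the Epcam prediction in all other P14 libraries was 8. It was 4 with the pan-epithelial median, Epcam included, or with P14 replicate 3 as basis. Apoc2 had at most 2 reads in any library. At E17.5, reads numbered 16 to 46 for Apob, 2 to 28 for Apoc3 and 3 to 14 for Mogat2.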
